A study of Homo sapiens with 6 samples.

Results

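Integrins are the cell-surface receptors that hold a cell to its matrix, and focal adhesions are the plaques of cytoplasmic proteins that join them to actin. The 38 genes described here were chosen by symbol, as chains of integrins or proteins of focal adhesions, and not by a threshold on any measured value. They comprise 19 integrin chains (12 alpha and 7 beta) and 19 intracellular adhesion proteins, and all 38 were found among the 24789 features of the table. Of these, 37 passed the filter on low counts, and ITGA8 did not.

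An integrin is a pair of 1 alpha and 1 beta chain, and the pair decides whether the cell grips collagen, laminin or proteins that carry the RGD motif, such as fibronectin. Talins and kindlins bind the beta tail and switch the receptor on, the ILK-PINCH-parvin complex and the kinases FAK and SRC are recruited behind them, and vinculin, filamin, alpha-actinin, zyxin and tensins carry the link to actin. In hepatic stellate cells this machinery is known for sensing stiff matrix, and integrins with the alpha-V chain are known for releasing active TGF-beta.

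RNA was sequenced from LX-2, an immortalised human hepatic stellate cell line. All cells were transfected with 50 nM siRNA by a lipid reagent and harvested after 48 h. One group of 3 libraries received scrambled siRNA (genotype label WT) and the other group of 3 received siRNA against AEBP1 (genotype label AEBP1 knockdown), a gene whose products are a secreted collagen-binding protein and a transcriptional repressor. LX-2 is a single line in culture, and an untransfected group was not analysed here. Nothing in the labels says whether the 3 libraries of a group came from separate cultures, so p-values describe only the spread of these samples, possibly a technical one.

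The targeted gene went against the labels in 2 libraries. AEBP1 measured 53.6, 48.7 and 25.1 CPM (counts scaled to 1000000 per library) in the libraries labelled scrambled siRNA 1, 2 and 3, and 29.7, 27.7 and 48.3 CPM in the ones labelled AEBP1 siRNA 1, 2 and 3. The library labelled scrambled siRNA 3 was thus as low as the AEBP1 siRNA pair with numbers 1 and 2, and AEBP1 siRNA 3, as labelled, was about as high as the scrambled pair with numbers 1 and 2. Between the labelled groups AEBP1 had a log2 fold change of -0.27 (SE 0.31, edgeR adjusted p = 0.991). Every direction below is drawn from the labels as deposited.

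Total counts were 34433510 to 49432960 per library, and 18189 to 19028 features had at least 1 count. Both lowest values were those of the library labelled AEBP1 siRNA 1. In a chi-square test of counts each pair of libraries was further apart than sampling noise gives (at least 7.79 per degree of freedom). The closest pair was scrambled siRNA 3 with AEBP1 siRNA 2 by label, and AEBP1 siRNA 3 was closest to scrambled siRNA 2 (9.21). On the first principal component (34.8% of variance) the library labelled AEBP1 siRNA 1 lay at 65.9 and the others at -17.3 to -5.74. The 23 stellate and mesenchymal markers were mixed: 17 passed the filter, and the list summed to 3000 to 3393 CPM. VIM (mean 1168 CPM), COL1A1 (1513), SYNM (62.9), LHX2 (50.4), PDGFRB (33.3) and NGFR (28.1) were measured well, ACTA2 (4.02), COL1A2 (4.20) and PDGFRA (0.741) were low, and LRAT, DES, GFAP, DCN and LUM were at 0 to 0.173 CPM. Of 10 hepatocyte markers APOB, TTR and FGB had no count and the list summed to 52.1 to 68.7 CPM over the 6 libraries, most of it CPS1. The 8 endothelial markers summed to 1.26 to 2.15 CPM.

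Levels of different genes were compared in fragments per kilobase of transcript, scaled to library size (FPKM), which the authors deposited. The cells held much transcript for a small set of adhesion proteins: 3 genes had a mean FPKM of at least 100, 11 at least 50, 22 at least 10 and 32 at least 1. The actin crosslinker FLNA (226 ± 22.2 FPKM, SD over 6 libraries) and the integrin chain ITGB1 (212 ± 11.0) led, and their ranges overlapped. ACTN1 followed at 145 ± 4.41 FPKM, below the range of either. At the other end ITGB7, ITGB8 and ITGA9 had mean FPKM of 0.134, 0.0392 and 0.0297, from 8 to 30, 7 to 23 and 5 to 17 counts per library. Neighbours in the order were mostly not separated: in 29 of 37 neighbouring pairs the 6 values of one gene overlapped those of the next.

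**Figure D1:**
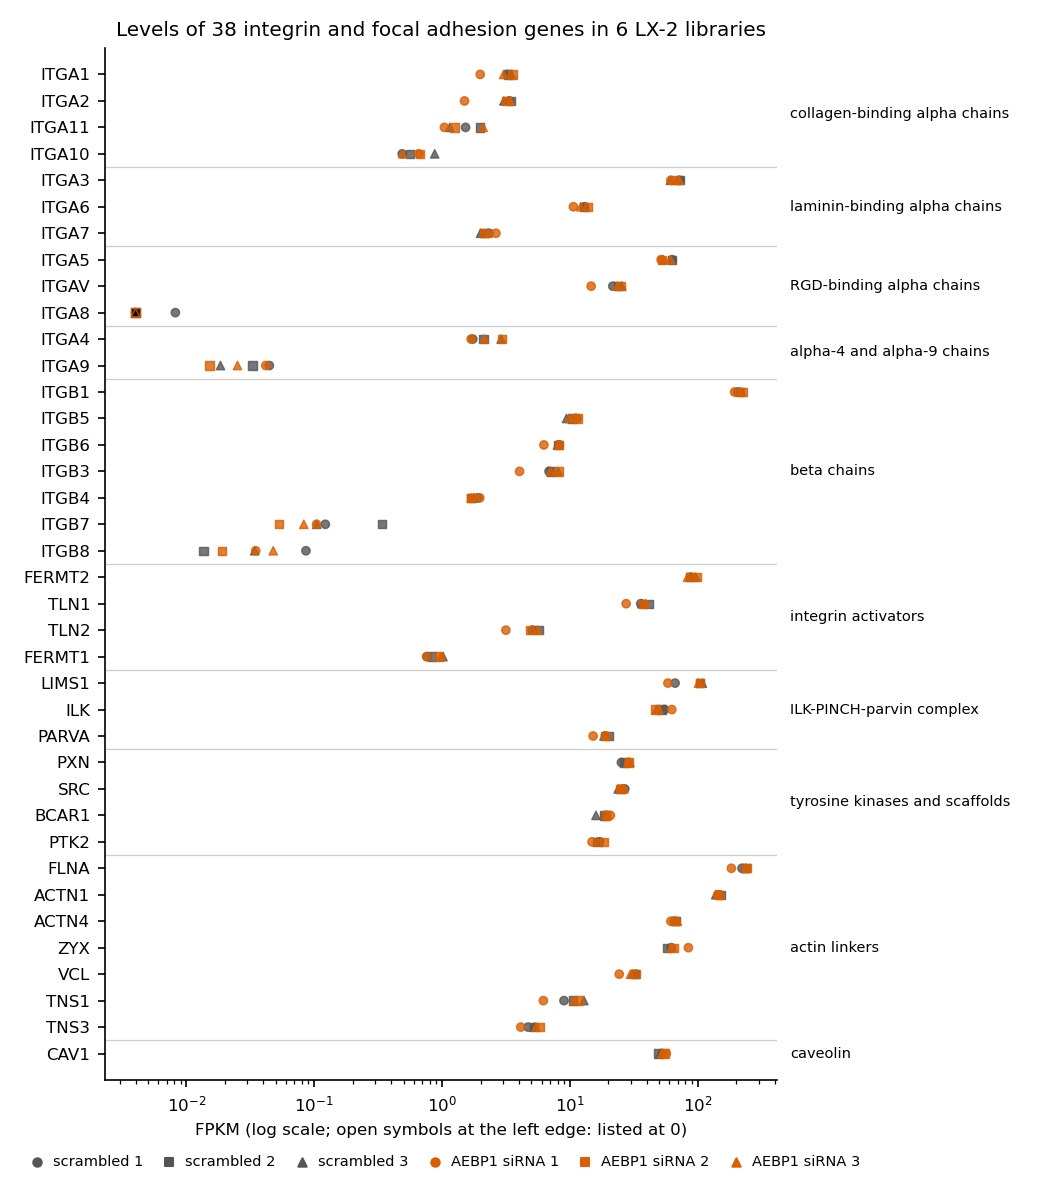
Deposited FPKM (horizontal, log scale) of the 38 genes in each of 6 libraries, grouped by role, with grey symbols for libraries labelled scrambled siRNA and orange for AEBP1 siRNA, and symbol shape for the replicate number. FLNA, ITGB1 and ACTN1 are the only genes with a mean above 100, and the differences between genes are far wider than those between libraries of one gene.

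Promoter sequences of 29 of the 38 genes were matched by symbol in RefSeq (GRCh38.p14), as the 250 bases before the annotated start. They are given for 4 genes that contrast in level and base composition: ITGB1 (the upstream start of 2 listed) and FLNA, the most abundant integrin chain and the most abundant gene, ITGB8, a beta chain at a mean of 0.0392 FPKM, and ITGB6, a beta chain at 7.84 FPKM with the fewest G and C of the 29. Each runs 5′ to 3′ on the gene's strand. ITGB1 lies at chr10:32958231-32958480 (minus strand), FLNA at chrX:154374635-154374884 (minus), ITGB8 at chr7:20330650-20330899 (plus) and ITGB6 at chr2:160200273-160200522 (minus). Capitals mark matches, on either strand, to the Sp1-type GC box GGGCGG, the AP-1 motif TGANTCA, the TATA box TATAAA and the CArG box, the binding motif of serum response factor.
ITGB1: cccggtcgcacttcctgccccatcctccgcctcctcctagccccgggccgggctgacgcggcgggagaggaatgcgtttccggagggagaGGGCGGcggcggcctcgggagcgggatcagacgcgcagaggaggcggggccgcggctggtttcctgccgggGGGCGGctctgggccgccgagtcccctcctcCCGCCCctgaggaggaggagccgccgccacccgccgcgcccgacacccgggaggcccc
FLNA: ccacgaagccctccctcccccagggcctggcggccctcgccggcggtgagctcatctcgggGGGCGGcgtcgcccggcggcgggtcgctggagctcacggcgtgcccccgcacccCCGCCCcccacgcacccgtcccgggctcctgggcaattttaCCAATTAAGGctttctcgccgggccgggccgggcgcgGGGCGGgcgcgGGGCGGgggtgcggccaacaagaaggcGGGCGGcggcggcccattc
ITGB8: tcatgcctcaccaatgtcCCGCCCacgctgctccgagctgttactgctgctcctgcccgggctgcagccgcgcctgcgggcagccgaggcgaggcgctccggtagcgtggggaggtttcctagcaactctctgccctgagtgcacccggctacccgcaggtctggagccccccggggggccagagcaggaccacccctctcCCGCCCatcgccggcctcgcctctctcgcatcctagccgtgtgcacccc
ITGB6: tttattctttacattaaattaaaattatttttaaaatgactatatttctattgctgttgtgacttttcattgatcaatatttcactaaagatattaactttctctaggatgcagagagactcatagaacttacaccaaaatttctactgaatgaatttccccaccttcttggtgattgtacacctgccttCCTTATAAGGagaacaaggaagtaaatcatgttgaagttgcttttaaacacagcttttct
The ITGB1 and FLNA sequences held 3 and 5 GC boxes and were each 78.4% G or C, with 32 and 35 CpG. FLNA also held 1 CArG box. The ITGB8 sequence was of the same kind, at 71.2% G or C with 21 CpG and 2 GC boxes, although ITGB8 had a mean of only 0.0392 FPKM. The ITGB6 sequence differed from these, with 30.0% G or C, no CpG, no GC box and 1 CArG box. Over the 29 genes, with 1 start each, the medians were 71.2% G or C and 23 CpG, against 58.0% and 11 over the 35116 promoters of the table. Those 35116 include every listed start of a gene, so the units differ, and medians over all starts of these genes were not taken. Over all 54 promoters listed for these genes, a GC box was found in 30 (55.6%, against 42.6% of all promoters), TATAAA in 4 (7.41% against 10.7%), TGANTCA in 3 (5.56% against 6.57%) and the CArG box in 3 (5.56% against 1.16%). Matches of different motifs may overlap, and they describe only the letters in this window.

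Between the labelled groups no integrin or focal adhesion gene passed the test. The edgeR quasi-likelihood test called 0 of 37 at an adjusted p under 0.05 (adjusted p 0.991 to 0.997), where it called 0.00615% of the 16250 genes tested. That share is 1 gene, the readthrough transcript SENP3-EIF4A1, with 469 to 851 counts in the libraries labelled scrambled siRNA and 6407 to 11653 in the ones labelled AEBP1 siRNA, number 3 included; it overlaps SENP3 and EIF4A1, so its reads could be shared with theirs. At an unadjusted p under 0.05 it also found 0 of 37, against 1.33% of all genes, and DESeq2 and limma-voom, which called 0.0369% and 0.0123% of all genes, called 0 of 37 as well. Log2 fold changes ran from -0.62 (ITGB7) to 0.20 (ZYX) with a median of -0.05, against -0.00226 over all genes, and 28 of 37 were negative (75.7%, against 50.6% of all genes). The 95% interval lay within 1.5-fold in both directions for 26 of 37 genes (60.4% of all genes) and within 2-fold for 34 (79.2% of all genes). In bulk RNA, fewer cells that express a gene and less RNA per cell cannot be told apart. The values follow by role.

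**Figure D2:**
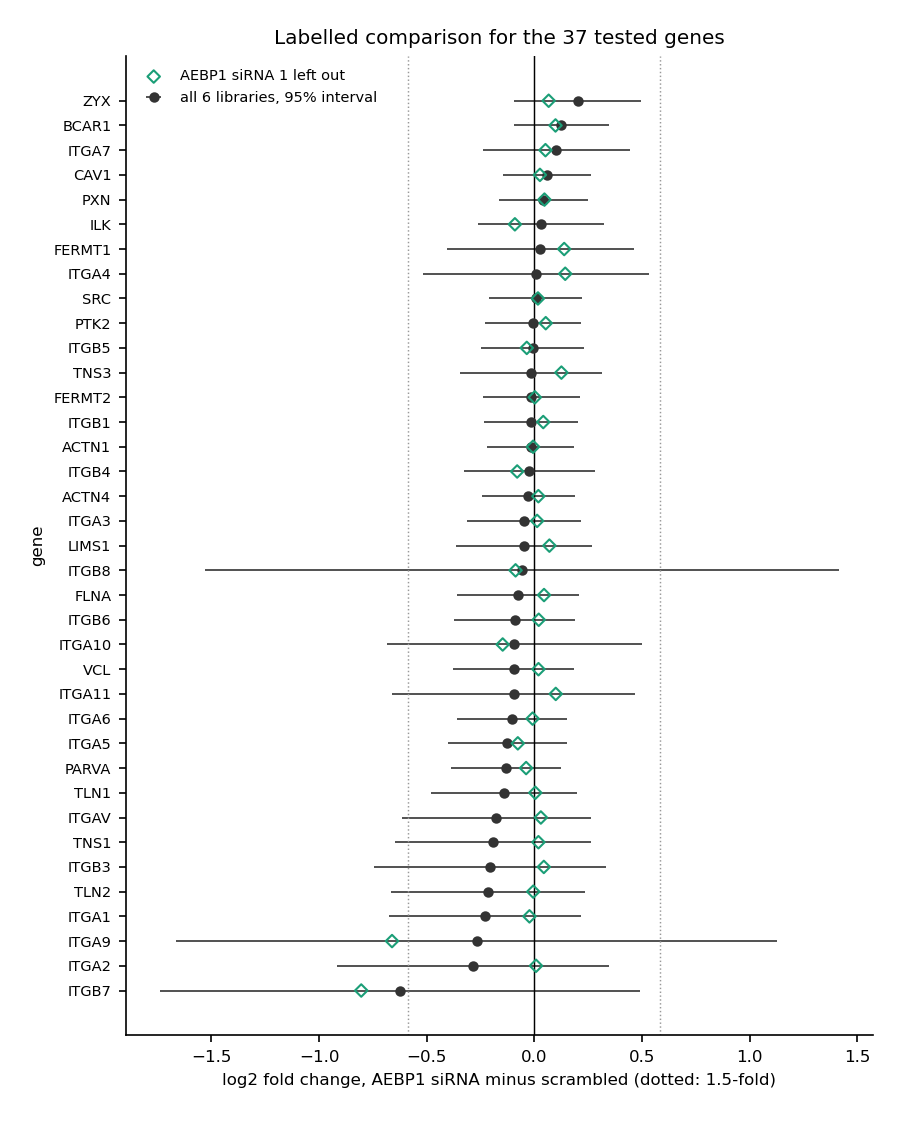
Log2 fold change (horizontal), AEBP1 siRNA minus scrambled siRNA by label, for the 37 genes tested, with black points and 95% intervals from all 6 libraries, open green diamonds for the fit without the library labelled AEBP1 siRNA 1, and dotted lines at 1.5-fold. Every interval includes 0, and the widest belong to ITGB8, ITGA9 and ITGB7, which had at most 30 counts in a library.

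Among the collagen-binding alpha chains, ITGA1 and ITGA2, which pair with ITGB1 as the classical collagen receptors, had the highest levels at 3.10 ± 0.575 and 2.99 ± 0.746 FPKM, over ITGA11 at 1.51 ± 0.441 and ITGA10 at 0.624 ± 0.146. ITGA1 measured 39.6, 39.6 and 42.2 CPM in the libraries labelled scrambled siRNA 1, 2 and 3, and 23.8, 42.5 and 37.2 CPM in the ones labelled AEBP1 siRNA 1, 2 and 3. Only the library labelled AEBP1 siRNA 1 was low, and the groups overlapped (means 40.5 ± 1.48 and 34.5 ± 9.64, SD with n = 3 here and in the means that follow, log2 fold change -0.23, SE 0.19, edgeR adjusted p = 0.991). ITGA2 had the same shape, with 13.1 CPM in the library labelled AEBP1 siRNA 1 and 27.0 to 30.6 CPM in the other 5. ITGA11, a fibroblast collagen receptor chain, was at 13.2, 14.7 and 10.3 CPM by label scrambled and 8.43, 11.2 and 16.03 by label AEBP1 siRNA, so that the libraries labelled with number 3 were the lowest scrambled and the highest AEBP1 siRNA library. ITGA10 stayed between 2.92 and 5.20 CPM, with its highest value in the library labelled scrambled siRNA 3.

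ITGA3 was the main laminin-binding chain at 67.6 ± 5.32 FPKM, over ITGA6 at 12.6 ± 1.09 and ITGA7, best known from muscle, at 2.25 ± 0.224. ITGA3 measured 394, 391 and 329 CPM in the libraries labelled scrambled siRNA and 329, 354 and 394 CPM in the ones labelled AEBP1 siRNA, in the order of their numbers. The libraries labelled with number 3 were again the lowest scrambled and the highest AEBP1 siRNA library, the groups overlapped, and the log2 fold change was -0.05 (means 371 ± 36.7 and 359 ± 33.1, SE 0.12, edgeR adjusted p = 0.991). ITGA6, which pairs with ITGB1 or ITGB4, was at 77.0 to 84.4 CPM in 5 libraries and at 65.2 in that labelled AEBP1 siRNA 1. ITGA7 ranged from 8.37 to 10.5 CPM, and the groups overlapped.

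ITGA5, the partner of ITGB1 in the fibronectin receptor, was the highest RGD-binding chain at 57.5 ± 5.44 FPKM, and ITGAV, which pairs with several beta chains, stood at 22.3 ± 3.97. ITGA5 measured 317, 313 and 267 CPM in the libraries labelled scrambled siRNA 1, 2 and 3, and 255, 257 and 310 CPM in the ones labelled AEBP1 siRNA 1, 2 and 3. The same 3 libraries were high for ITGA5 as for AEBP1 and ITGA3, namely those labelled scrambled siRNA 1 and 2 and AEBP1 siRNA 3, and the labelled groups overlapped (means 299 ± 28.1 and 274 ± 31.0, log2 fold change -0.13, SE 0.12, edgeR adjusted p = 0.991). The share of all genes with this split of libraries was not counted, and a link with AEBP1 was not tested. ITGAV was at 173, 188 and 199 CPM and at 114, 194 and 187 CPM, so that only the library labelled AEBP1 siRNA 1 was low. The ratio of ITGA5 to ITGAV FPKM was therefore highest in that library, at 3.52 against 2.10 to 2.91 in the other 5. ITGA8, known from stellate cells in tissue, had 3 counts in the library labelled scrambled siRNA 1 and 0 in the other 5, where a count of 0 allows up to 0.0607 to 0.0871 CPM for counting error only.

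ITGA4, a receptor chain for VCAM1 and fibronectin, measured 8.11, 8.53 and 12.7 CPM in the libraries labelled scrambled siRNA 1, 2 and 3, and 7.88, 12.02 and 9.62 CPM in the ones labelled AEBP1 siRNA 1, 2 and 3. Its highest values were in the libraries labelled scrambled siRNA 3 and AEBP1 siRNA 2, the groups overlapped, and the log2 fold change was 0.01 (means 9.79 ± 2.56 and 9.84 ± 2.08, SE 0.23, edgeR adjusted p = 0.997). ITGA9, its closest relative, was at 0.133 to 0.414 CPM.

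**Figure D3:**
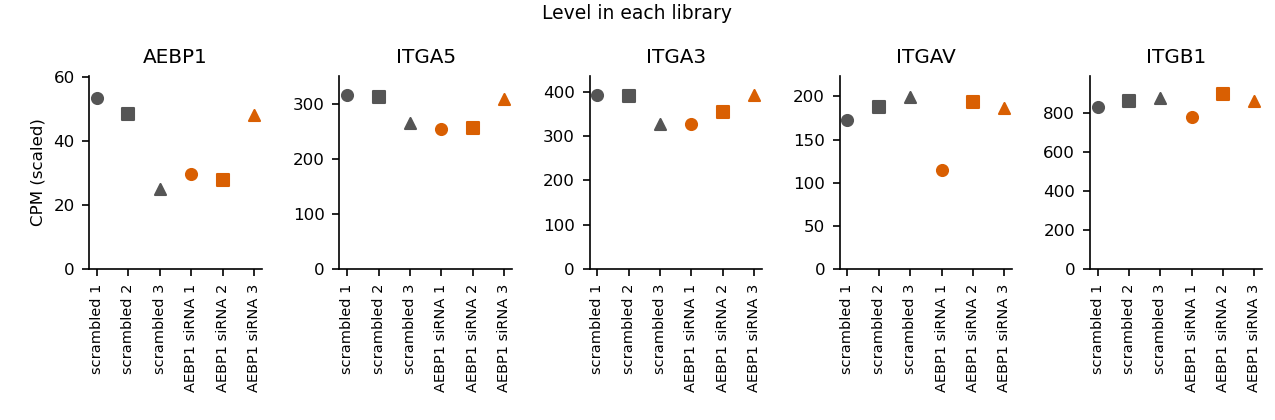
Scaled CPM of AEBP1, ITGA5, ITGA3, ITGAV and ITGB1 in each library as labelled (grey, scrambled siRNA; orange, AEBP1 siRNA; vertical axes start at 0). ITGA5 and ITGA3 are high in the same 3 libraries as AEBP1, ITGAV is low only in AEBP1 siRNA 1, and ITGB1 lies between 779 and 898 CPM in all 6. The share of all genes split as AEBP1 is was not counted.

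ITGB1, the partner of all 12 alpha chains, made up most of the beta chain transcript: 88.4% ± 0.559 of summed beta chain FPKM in the libraries labelled scrambled siRNA and 88.8% ± 0.433 in the ones labelled AEBP1 siRNA (n = 3 each). It measured 831, 863 and 877 CPM and then 779, 898 and 866 CPM in number order. These 6 values lay within 1.15-fold of each other, and the log2 fold change was -0.02 with a 95% interval from -0.23 to 0.20 (means 857 ± 24.0 and 848 ± 61.7, SE 0.09, edgeR adjusted p = 0.991). ITGB5, ITGB6 and ITGB3, all RGD receptor partners of ITGAV, followed at 10.6 ± 0.831, 7.84 ± 0.780 and 6.88 ± 1.497 FPKM. ITGB3 was at 17.6 CPM in the library labelled AEBP1 siRNA 1 and at 30.5 to 35.7 in the other 5, whereas ITGB5 ran from 45.8 to 55.7 CPM with no library apart. ITGB6 and ITGB4 are best known from epithelia, and ITGB4 was at 1.79 ± 0.124 FPKM. Of 8 epithelial markers, which summed to 203 to 279.8 CPM over the libraries, KRT18 (mean 167 CPM), KRT8 (34.6), KRT7 (16.2) and CLDN4 (3.72) were measured, and EPCAM, CDH1 and KRT19 were at 0.0122 to 0.0354 CPM. ITGB7 had the lowest log2 fold change of the 37 (-0.62, SE 0.49), on 8 to 30 counts per library and with groups that overlapped. It shares 1886 exon bases with ZNF740 on the other strand in GENCODE 29, so reads of the pair could be mixed.

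The 12 alpha chains together summed to 178 ± 10.1 FPKM in the libraries labelled scrambled siRNA and 167 ± 17.5 FPKM in the ones labelled AEBP1 siRNA (n = 3 each, exact permutation p = 0.5). There were 1.19 ± 0.0970 and 1.27 ± 0.0839 FPKM of ITGB1 per FPKM of alpha chain (exact permutation p = 0.2). ITGA3 took 38.4% and 39.9% of alpha chain FPKM, ITGA5 33.5% and 33.1%, and ITGAV 13.3% and 12.4%, so these 3 chains had the same order in both labelled groups. The collagen-binding chains took 3.50% in the library labelled AEBP1 siRNA 1 and 4.72% to 5.13% in the other 5. None of 14 such sums and ratios separated the labelled groups in two-sided exact permutation tests (p from 0.2, Benjamini-Hochberg adjusted 0.862 to 0.9), where 3 against 3 cannot go below 0.1.

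The talins and kindlins were each dominated by 1 gene. TLN1 was at 36.2 ± 4.67 FPKM and TLN2 at 4.92 ± 0.918, and TLN1 made up 87.8% ± 0.145 and 88.5% ± 1.15 of talin FPKM by label. FERMT2, the kindlin of mesenchymal cells, was at 90.2 ± 5.86 FPKM. The kindlin FERMT3 was at 2.40 ± 0.365, and FERMT1, the kindlin of epithelia, at 0.883 ± 0.113. FERMT2 measured 330, 324 and 352 CPM in the libraries labelled scrambled siRNA and 324, 360 and 312 CPM in the ones labelled AEBP1 siRNA. No library stood apart, the groups overlapped, and the log2 fold change was -0.02 (means 335 ± 14.9 and 332 ± 24.6, SE 0.10, edgeR adjusted p = 0.991). Both talins were lowest in the library labelled AEBP1 siRNA 1: TLN1 at 270 CPM against 359 to 410 in the others, and TLN2 at 41.3 against 63.7 to 75.1.

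Of the ILK-PINCH-parvin complex, the PINCH adaptor LIMS1 had the highest FPKM, and it is also the gene whose 2 deposited units differed most among the 34 of these genes with at least 100 counts in each library. In counts it measured 291, 320 and 353 CPM in the libraries labelled scrambled siRNA 1, 2 and 3, and 257, 348 and 326 CPM in the ones labelled AEBP1 siRNA 1, 2 and 3 (means 321 ± 31.4 and 311 ± 47.3, log2 fold change -0.05, SE 0.14, edgeR adjusted p = 0.991). In FPKM the same libraries read 66.5, 104 and 109, and 58.4, 104 and 101. The libraries with number 1 were the lowest in both units, but the span was 1.37-fold in CPM and 1.86-fold in FPKM. The transcript length implied by count and FPKM was 4346 and 4448 bases in the libraries with number 1 and 3071 to 3348 in the other 4. A ratio of implied lengths this wide (1.45) was reached by 3.20% of 12031 genes with at least 100 counts in each library, whose median ratio was 1.05. LIMS1 has close copies in LIMS3 (10.5 to 24.3 CPM) and LIMS4 (5.58 to 14.1 CPM), among which reads could be split, so its level is uncertain.

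The scaffold kinase ILK and the actin-binding parvin PARVA showed opposite shapes in the library labelled AEBP1 siRNA 1. ILK was highest there at 122 CPM, against 91.5 to 111 in the other 5, and PARVA was lowest there at 145 CPM, against 176 to 190. ILK shares 2374 exon bases with TAF10 on the other strand in GENCODE 29, and the strand setting behind the counts was not given in the sources used here.

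The kinases and scaffolds had steady levels. PXN, paxillin, the scaffold that brings signalling proteins to the plaque, was the highest of them at 27.9 ± 1.67 FPKM, ahead of SRC (25.4 ± 1.09), BCAR1 (the SRC substrate p130Cas, 18.9 ± 1.60) and PTK2 (focal adhesion kinase, 16.6 ± 1.13). PXN measured 111, 114 and 124 CPM in the libraries labelled scrambled siRNA and 119, 121 and 118 CPM in the ones labelled AEBP1 siRNA. The groups overlapped (means 116 ± 6.95 and 119 ± 1.82, log2 fold change 0.04, SE 0.09, edgeR adjusted p = 0.991). The 95% intervals of SRC (-0.21 to 0.22 on the log2 scale) and PTK2 (-0.23 to 0.21) were among the narrower ones. BCAR1 was at 59.4 to 73.0 CPM, with a log2 fold change of 0.13 (interval -0.09 to 0.34).

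Among the actin linkers FLNA measured 2092, 2246 and 2223 CPM in the libraries labelled scrambled siRNA 1, 2 and 3, and 1713, 2237 and 2275 CPM in the ones labelled AEBP1 siRNA 1, 2 and 3. Only the library labelled AEBP1 siRNA 1 was low, and the groups overlapped (means 2187 ± 83.0 and 2075 ± 314, log2 fold change -0.08, SE 0.12, edgeR adjusted p = 0.991). VCL, vinculin, which binds talin and actin, had the same shape (175 CPM there, 220 to 235 in the other 5), and it shares 1109 exon bases with AP3M1 on the other strand. The tensins, which tie beta tails to actin, were also low there, TNS1 at 69.9 against 104 to 126 CPM and TNS3 at 33.8 against 40.1 to 48.5. The alpha-actinins ACTN1 and ACTN4 lay within 1.08-fold and 1.14-fold over the 6 libraries, and ACTN1 made up 68.6% ± 1.04 and 68.8% ± 1.14 of their summed FPKM by label. ACTN4 was at 66.1 ± 2.56 FPKM (SD over 6 libraries).

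ZYX, zyxin, a LIM protein that gathers at adhesions and stress fibres under load, was the only one of the 37 genes whose labelled groups did not overlap, against 5.93% of all genes tested. It measured 169, 150 and 170 CPM in the libraries labelled scrambled siRNA, and 221, 170 and 171 CPM in the ones labelled AEBP1 siRNA. The highest scrambled value (169.8) and the lowest AEBP1 siRNA value (170.1) nearly met, and only the library labelled AEBP1 siRNA 1 stood apart. The log2 fold change was 0.20 (means 163 ± 11.1 and 187 ± 29.2, SE 0.13, edgeR unadjusted p = 0.153, adjusted 0.991), and without the library labelled AEBP1 siRNA 1 it was 0.07.

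CAV1, caveolin-1, the coat protein of caveolae, was at 52.9 ± 2.76 FPKM. It measured 163, 155 and 156 CPM in the libraries labelled scrambled siRNA and 171, 165 and 157 CPM in the ones labelled AEBP1 siRNA. All 6 values lay within 1.11-fold, and the groups overlapped (means 158 ± 4.79 and 164 ± 7.31, log2 fold change 0.06, SE 0.09, edgeR adjusted p = 0.991).

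Levels of one gene varied little over the libraries: the highest CPM was under 1.5 times the lowest for 24 of 37 genes, and the median log2 range was 0.42, against 0.54 over all genes tested. For most of them the extreme value lay in 1 library. In the library labelled AEBP1 siRNA 1, 22 of 37 genes had their lowest value (59.5%, against 32.6% of all genes) and 6 their highest (16.2%, against 32.2%). The median deviation from a gene's own mean was -0.15 on the log2 scale there, against 0.01 over all genes, and 0.03 to 0.06 for these genes in the other 5 libraries. The largest negative deviations were those of ITGA2, ITGB3, ITGA1, TLN2, TNS1 and ITGAV (-0.96 to -0.60), and outside ITGA9, which had few counts, the largest positive ones were those of ZYX (0.35) and ILK (0.24).

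**Figure D4:**
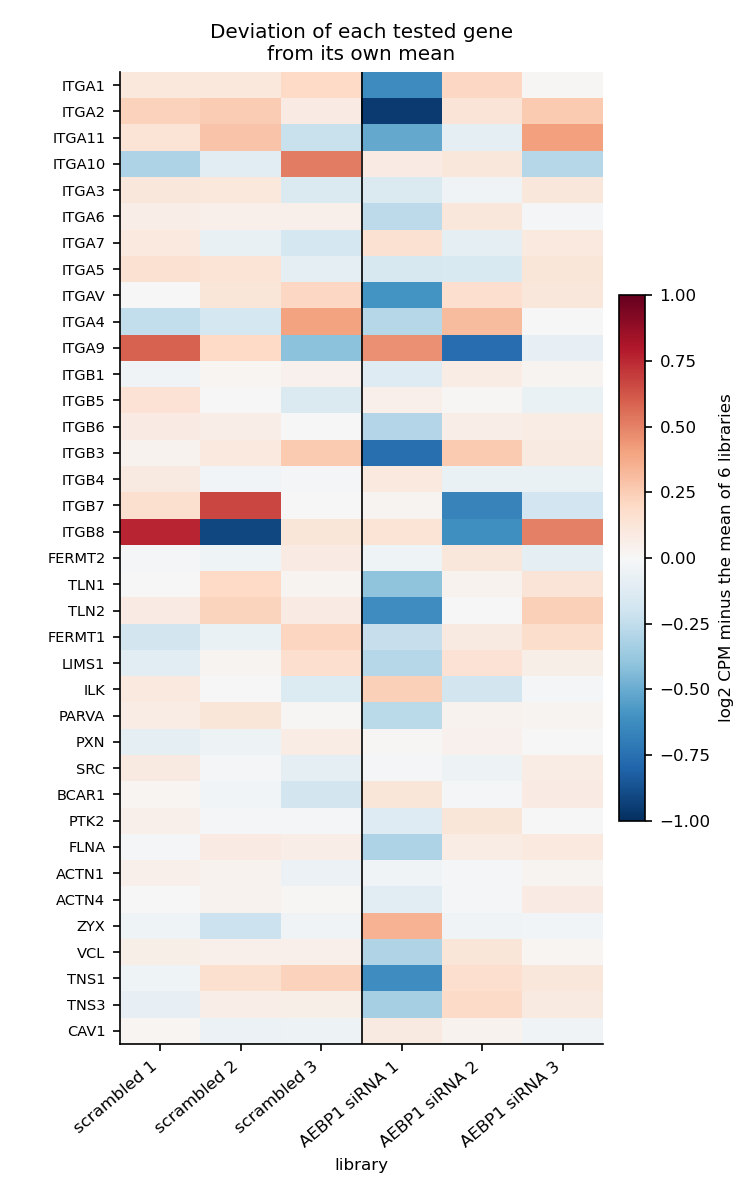
Deviation of each of the 37 tested genes (vertical, grouped by role) from its own mean over 6 libraries (horizontal), on the log2 CPM scale from blue (lower) to red (higher). The column of AEBP1 siRNA 1 is mostly blue, with 25 of 37 genes below their mean, and the other columns are pale apart from ITGB7, ITGB8, ITGA9, ITGA10, ITGA11 and ITGA4.

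Transcript length moved with the levels in that library. The median implied length was 5396 bases for these genes and 3162 bases for all genes tested. Across the 37 genes, all read from 1 library at 1 depth, implied length and the deviation in the library labelled AEBP1 siRNA 1 had a Spearman rho of -0.56, and across all 16250 genes it was -0.48. Genes are not independent replicates, so this is a description. TLN2, ITGA1 and TNS1, with implied lengths of 9818 to 13330 bases, were low, and ILK and ZYX, with 1962 to 2727 bases, were high. ITGB3 was low at about the same implied length (4396 to 4459 bases) as ACTN1 (4085 to 4234), which was not. What part length has in the levels of this library was not tested.

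**Figure D5:**
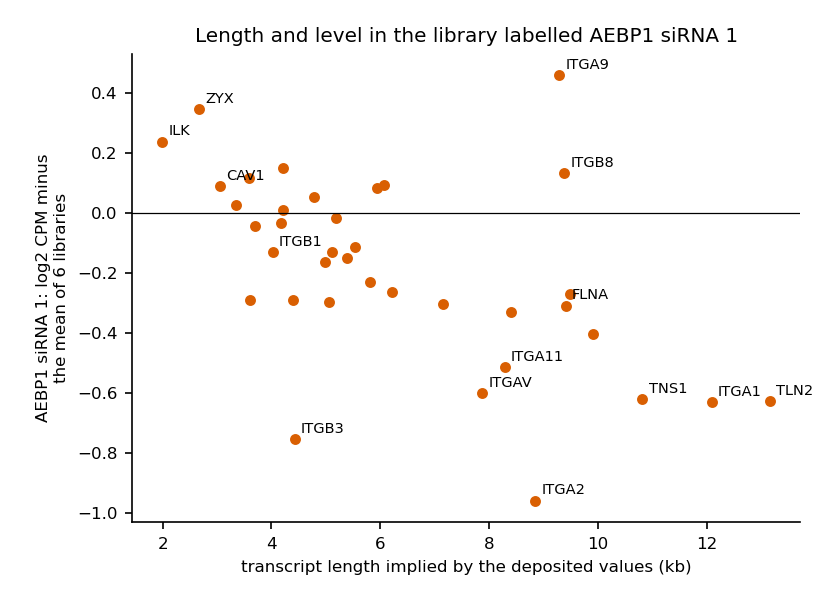
Transcript length implied by the deposited count and FPKM (horizontal, kb) against the deviation of log2 CPM from the mean of 6 libraries in the library labelled AEBP1 siRNA 1 (vertical), with 1 point for each of 37 genes. Longer transcripts are lower (Spearman rho -0.56), and ITGA9 and ITGB8, above the line at the right, had at most 17 and 23 counts in a library.

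The count of negative values changed with that library. Without it, 13 of 37 genes were negative in place of 28 (35.1%, against 50.3% of all genes), the median log2 fold change was 0.02, and edgeR called 0 of 37 (0.006% of all genes) and found 0 at an unadjusted p under 0.05 (1.42%). Without both libraries with number 3, whose AEBP1 levels went against their labels, 28 of 37 were negative, the median was -0.08, and edgeR called 0 (0.00614% of all genes) and found 0 at an unadjusted p under 0.05 (4.7%). In that fit ITGA5 and ITGA11, named after their values were seen, had log2 fold changes of -0.30 and -0.50 with an edgeR adjusted p of 0.967 each. For both genes the left-out libraries were the lowest scrambled and the highest AEBP1 siRNA library, so leaving them out lowers the value. Larger negative values in that fit included ITGB7 at -0.81 and ITGA2 at -0.56.

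With all 3 of these libraries left out, 1 library labelled AEBP1 siRNA remained, which is then assumed to vary as the scrambled pair does. There 19 genes were negative and 18 positive with a median of -0.01, as over all genes, and edgeR called 0 of 37, where it called 1.46% of all genes. At an unadjusted p under 0.05 it found 3 of 37 (12.2% of all genes): ITGA5 at -0.29 (adjusted p = 0.196), ITGA4 at 0.53 (adjusted p = 0.315) and ILK at -0.23 (adjusted p = 0.368), named after their values were seen. The libraries with number 3 were left out because of their AEBP1 level and AEBP1 siRNA 1 because it stood apart, so the AEBP1 value of these fits is no check of the knockdown.

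Other genes of integrin adhesion were counted in 7 lists of 127 genes, of which 115 were tested. The edgeR test called 0 of 115 (0.00615% of all genes), and 0 had an unadjusted p under 0.05 (1.33% of all genes). The medians below are log2 fold changes, to be read beside -0.00226 over all genes, and the signs beside 50.6% negative over all genes. The signs of the lists were not counted again without the library labelled AEBP1 siRNA 1. Of 26 matrix and cell ligands 5 were positive and 21 negative (median -0.13). FN1, fibronectin, the ligand of ITGA5, measured 2446, 2774 and 2363 CPM in the libraries labelled scrambled siRNA and 1290, 1980 and 2739 CPM in the ones labelled AEBP1 siRNA. Its lowest value was again in the library labelled AEBP1 siRNA 1, and its groups overlapped (log2 fold change -0.34, SE 0.24, edgeR adjusted p = 0.991). TGFB1, which integrins with the alpha-V chain activate, was at 74.2 to 83.0 and 81.5 to 104 CPM (log2 fold change 0.17). Without the library labelled AEBP1 siRNA 1 the log2 fold changes were -0.10 for FN1 and 0.05 for TGFB1, and without that labelled AEBP1 siRNA 3 FN1 was at -0.63.

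Of 17 other activators and regulators 11 were positive and 6 negative (median 0.07). PLAUR, the urokinase receptor, had a log2 fold change of 0.19, and CD9, a tetraspanin, 0.17. Without the library labelled AEBP1 siRNA 1 these were 0.04 each. Of 30 other kinases, phosphatases and adaptors 10 were positive and 20 negative (median -0.06), with CSK, which restrains SRC, at 0.20 and the small GTPase CDC42 at 0.47 (SE 0.30). Without the library labelled AEBP1 siRNA 1 CSK was at 0.08, and CDC42 was at 0.84 without scrambled siRNA 2, 0.20 without scrambled siRNA 3 and 0.25 without AEBP1 siRNA 2. The 4 other integrin chains tested had 3 positive and 1 negative value (median 0.15), with ITGA2B at 0.23 (0.05 without AEBP1 siRNA 3) and ITGAE at 0.15 (-0.04 without AEBP1 siRNA 1). The 2 relatives of the ILK complex tested were both positive, LIMS2 at 0.23 and PARVB at 0.06 (0.07 and -0.01 without AEBP1 siRNA 1).

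The 29 other actin linkers and LIM proteins were split into 14 positive and 15 negative (median -0.01). FHL3, a LIM protein, was at 15.9 to 17.97 and 18.1 to 24.6 CPM (log2 fold change 0.29, SE 0.15), and PALLD, palladin, a scaffold of stress fibres, was at 53.7 to 56.1 and 48.6 to 49.7 CPM (-0.16, SE 0.08). Of 7 caveola partners 5 were positive and 2 negative (median 0.11), with CAVIN3 at 8.60 to 10.2 and 10.6 to 16.2 CPM (0.43, SE 0.20) and PACSIN3 at 0.21 (SE 0.13). FHL3, PALLD and CAVIN3 were the 3 of 115 genes whose labelled groups did not overlap (2.61%, against 5.93% of all genes), and each had an edgeR adjusted p of 0.991. In the library labelled AEBP1 siRNA 1, FHL3 and CAVIN3 had their highest values, whereas the 3 PALLD values of that label lay within 48.6 to 49.7 CPM. Without that library the log2 fold changes were 0.15 for FHL3, 0.20 for CAVIN3 and -0.17 for PALLD.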

How the data were processed

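RNA sequencing of LX-2 cells gave 3 libraries for each siRNA label. The authors deposited counts and FPKM per gene, per the file headers. They used hg19, per the submitters' processing notes. Aligner, counter, gene models, strandedness and filters were not given in the sources used here. A further 17 lines without values were left out, and 27 symbols that a spreadsheet had turned into dates were restored by gene ID.

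Counts of all genes were filtered with filterByExpr, scaled by TMM and tested by quasi-likelihood in edgeR 4.0.16 (R 4.3.3). The model held the label only, and p-values of 16250 genes were adjusted by Benjamini-Hochberg. Each SE is the log2 fold change over the root of its F value. CPM is the count per scaled library size times 1000000. Implied length is count per FPKM and library total. The steps were tested on simulated data. Sums were compared with exact permutation tests (SciPy 1.17.1). Alternatives were other scalings, filters and tests (DESeq2 1.42.0, limma 3.58.1 on counts and on log2(FPKM + 1) or log2(FPKM + 0.1)), a replicate block and left-out libraries.

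The genes, lists and alternatives were chosen with earlier results of these data known. Levels are given for all 38 genes, full values for the gene with the highest mean FPKM in each role and any whose groups did not overlap or whose unadjusted p was under 0.05, and for each other list the 2 genes with the smallest p unless any was called. Replicate numbers pair the labels in name only. Exon overlaps were read from GENCODE 29 by symbol.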

Additional observations from a re-analysis of the deposited data

How the results depend on the processing

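None of the 37 genes was called under any alternative run. Over all genes, 1 was called with all 6 libraries, and other settings gave 3 (no filter), 6 (DESeq2), 2 (limma-voom), 0 (adjusted p under 0.01), 0 to 2 with each library left out in turn (0 without either of the libraries labelled scrambled siRNA 1 and 2, 2 without AEBP1 siRNA 2) and 249 (the libraries labelled with number 3 and AEBP1 siRNA 1 left out). From that last fit 4 of the other adhesion genes were picked after their values were seen. Their log2 fold changes were 0.50 (SDC4), 0.64 (LPP), -0.54 (LPXN) and 0.77 (NEXN). The same fit put AEBP1 at -0.884 on the log2 scale in place of -0.269, the libraries with number 3 having been left out for their AEBP1 level. The cause of these moves was not tested. The fit without the libraries labelled with number 3 and AEBP1 siRNA 1 kept only 1 library labelled AEBP1 siRNA. That library is assumed to vary as the scrambled pair does. The libraries left out were chosen after their values were seen, so the calls of this fit are not read as a response of adhesion genes.

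Of 441 values of 26 named genes under alternatives, 26 changed sign, 14 of them with a single library left out, and none passed the threshold (smallest adjusted p 0.0736). With the same 3 libraries left out, ITGA1 was 0.103, ITGB1 0.0854, FERMT2 0.138, LIMS1 0.19, FLNA 0.0454, ITGA2B -0.0181, ITGAE -0.281, CD9 -0.0477 and PARVB -0.155 (log2). With only those labelled with number 3 left out, FERMT2 was 0.0635 and ITGA2B -0.0153, and FERMT2 was 0.000883 under upper quartile scaling. Leaving out each library in turn gave ranges of -0.127 to 0.0127 for ITGA3, -0.162 to 0.242 for ITGA4, -0.0597 to 0.0411 for ITGB1, -0.0766 to 0.0262 for FERMT2, -0.138 to 0.0697 for LIMS1, -0.147 to 0.0448 for FLNA, -0.0402 to 0.309 for ITGAE and -0.00685 to 0.164 for PARVB.

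With the replicate number as a block, 2 genes were called over all genes and 0 of the 37. Same-numbered libraries did not deviate together (correlations 0.0961, -0.00776 and -0.102), and some correlated more with another number. With 3 libraries a group, the 95% intervals of ITGB7, ITGB8 and ITGA9 reached past 2-fold, so a change of that size lay inside them. An interval is not the rule for a call, which was an adjusted p under 0.05 over 16250 genes. How large a change had to be for a call was not tested for any gene, so 0 calls do not exclude a 2-fold change.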
